A study of Mus musculus with 12 samples.

Results

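The vacuolar proton pump (V-ATPase) is built from subunits that in several cases come in more than 1 form, and 10 genes that make up 5 such isoform pairs are described here in the caput epididymidis of wild-type (WT) mice and of mice labelled knockout (KO) for Gpx5. The genes were chosen by name, as the B subunits Atp6v1b1 and Atp6v1b2, the d subunits Atp6v0d2 and Atp6v0d1, the G subunits Atp6v1g3 and Atp6v1g1, the C subunits Atp6v1c2 and Atp6v1c1, and the E subunits Atp6v1e2 and Atp6v1e1. All 10 were listed, in 11 of the 28344 transcript rows, among 22021 genes, and all 10 reached 1 RPKM (reads scaled to transcript length and library size) in at least 1 library. The transcriptome was sequenced from caput tissue of C57BL/6 mice aged 13 months, as 1 WT and 1 KO library, each from RNA pooled in place of replicates, and the protocol names 7 WT and 7 Gpx5-/- mice. Needle punctures and an incubation in buffer were used to free spermatozoa from the caput before the RNA was taken. With 1 pooled library per genotype, no value has a replicate error and no difference between genotypes was tested, and intervals at 95% cover the counting error of reads only.

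The V-ATPase pumps protons across membranes at the cost of ATP. Its V1 part, in the cytosol, splits ATP, and its V0 part, in the membrane, carries the protons. Ubiquitous forms of the subunits acidify lysosomes, endosomes and the Golgi in every cell. In the epididymis a minority of epithelial cells, called narrow cells in the initial segment and clear cells further along, place the pump in the apical membrane and acidify the lumen in which spermatozoa mature and are stored quiescent. These cells, like the intercalated cells of the kidney, use restricted forms of B, d, G and C, and the E subunit has a form known from male germ cells, where the pump acidifies the acrosome.

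The WT library rested on 14348655 reads and the KO library on 13929327. The targeted gene, Gpx5, had 8474 RPKM in WT and 918 RPKM in KO. Differences are given as log2(RPKM + 1) in KO minus WT, and 2-fold, a difference of at least 1, was needed for a call. Of the 15000 genes that reached 1 RPKM, 2.77% were called higher and 22.1% lower in KO, 24.9% in all. The median difference was 0.05, and 52.4% of these genes were above 0. All 16 spermatid markers and all 10 spermatocyte markers were called lower, as were 6 of 7 Leydig cell markers, with all 7 below 0. The principal cell and initial segment list was higher, at a median of 1.12 with 11 of 14 genes called. Values centred on that list subtract 1.12 from every difference and move the median of all genes to -1.07, so any deposited difference between 0 and 1.12 turns below 0. Under that centring 8 of the 15000 genes (0.0533%) were called higher and 8078 (53.9%) lower, in place of 415 and 3321. With a pseudocount (the value added to RPKM) of 0.1 RPKM, 698 of 15000 genes were called higher and 3765 lower. With 5 RPKM these counts were 190 and 2073, and with values centred on the median of all genes tested 321 and 3452. With transcript rows summed they were 440 and 3420 of 15251. Counts of calls given below, as deposited or centred, are to be read beside those of all genes at the same setting.

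Among the 4 clear-cell isoforms, Atp6v0d2 was the most abundant and Atp6v1b1 the least. Atp6v0d2, a d subunit that couples the rotor in the membrane to the stalk of V1, had 21.0 RPKM in WT (19.5 to 22.6) and 39.2 RPKM in KO (37.2 to 41.3). These levels rested on 755 and 1367 reads and did not overlap, and the KO level was 1.87-fold that of WT (1.71 to 2.04), a log2 difference of 0.87. Atp6v1g3, a G subunit of the peripheral stalks that hold V1 in place, had 5.84 RPKM in WT (4.96 to 6.82) and 12.3 RPKM in KO (11.0 to 13.7). It had the largest KO over WT ratio of the 10 genes, 2.11-fold (1.74 to 2.57), on 158 and 324 reads. With the pseudocount its log2 difference was 0.96, just under the 2-fold call, and it was 1.07 with a pseudocount of 0.1 RPKM and 0.68 with 5 RPKM.

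For the other clear-cell isoforms the interval of the KO over WT ratio included 1. Atp6v1c2, a C subunit that joins the peripheral stalks to the membrane part, was listed as 2 transcripts. NM_133699 had 5.16 RPKM in WT and 6.00 RPKM in KO, from 116 and 131 reads, and NM_001159632 had 5.11 and 5.93 RPKM, from 117 and 132 reads. The near-identical read numbers show that the same reads were counted for both rows, so they are not separate measurements. The KO over WT ratio of NM_133699 was 1.16-fold, and its interval included 1 (0.899 to 1.51). The Atp6v1c2 locus overlaps that of Pdia6, at 115 RPKM in WT and 217 RPKM in KO, and reads of the overlap cannot be assigned to a gene with certainty. Atp6v1b1, the B subunit of clear cells and renal intercalated cells, had 1.41 RPKM in WT (1.00 to 1.93) and 1.04 RPKM in KO (0.693 to 1.51), on 39 and 28 reads. Its log2 difference was -0.24, and the KO over WT ratio of 0.740 had an interval of 0.438 to 1.23, so neither a fall by 2-fold nor an equal level can be told at this depth. Taken as a set, the clear-cell isoforms had differences from -0.24 to 0.96 with a median of 0.53. Of these 0 of 4 were called, beside 24.9% of all genes tested, a share at which 4 genes say little. With values centred on the principal cell list all 4 were below 0, from -0.16 to -1.36.

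The 5 ubiquitous isoforms were all more abundant in the KO library as deposited, by 1.48-fold to 1.72-fold, beside 52.4% of all genes tested above 0. All 5 turned to between -0.35 and -0.59 with values centred on the principal cell list. Atp6v1g1 was the most abundant of the 10 genes, with 131 RPKM in WT (125 to 137) and 224 RPKM in KO (217 to 232). Atp6v1e1, the E subunit that pairs with G in the peripheral stalks, had 78.0 RPKM in WT (73.9 to 82.3) and 134 RPKM in KO (128 to 140). These 2 stalk subunits had nearly the same log2 difference, 0.77 each. Atp6v0d1 had 37.9 RPKM in WT (35.4 to 40.5) and 58.7 RPKM in KO (55.6 to 61.9). Atp6v1b2, the B subunit found in most tissues, had 18.3 RPKM in WT (17.0 to 19.7) and 27.1 RPKM in KO (25.4 to 28.8). Atp6v1c1 had 11.9 RPKM in WT (10.7 to 13.2) and 17.7 RPKM in KO (16.2 to 19.3). For none of the 5 did the intervals of the 2 libraries overlap. The share of all genes without such overlap was not counted, so this does not set the 5 apart. Of the 5, 0 were called at 2-fold, beside 24.9% of all genes tested. Their differences spanned only 0.54 to 0.77, inside the range of the clear-cell isoforms.

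Atp6v1e2, the E subunit of male germ cells, was the 1 member called. It had 35.9 RPKM in WT (32.8 to 39.1) and 0.429 RPKM in KO (0.157 to 0.933), from 517 and 6 reads. The WT level was thus close to that of Atp6v0d1, and the KO level was the lowest of the 10 genes. The WT level was 83.6-fold that of KO (38.2 to 229), and the log2 difference was -4.69, a value that the pseudocount sets in part, since it was -6.09 at 0.1 RPKM and -2.91 at 5 RPKM. In the authors' deposited table its log2 fold change was -6.10 and its GFOLD value, a fold change shrunken for low counts, was -4.78. The call of 1 member lower in 10 stands beside 22.1% of all genes called lower. The germ cell markers moved the same way. The summed level of the 16 spermatid markers was 11272 RPKM in WT and 169 RPKM in KO, and that of the 10 spermatocyte markers was 629 and 11.2 RPKM, with 0 markers of either list at 0. Markers of other testis cells fell too. The 7 Leydig cell markers, all below 0, summed to 363 RPKM in WT and 11.9 RPKM in KO. Of 5 tested Sertoli cell markers 3 were called lower and 2 were above 0. The part of any of these cells in the difference of Atp6v1e2 was not tested.

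**Figure D1:**
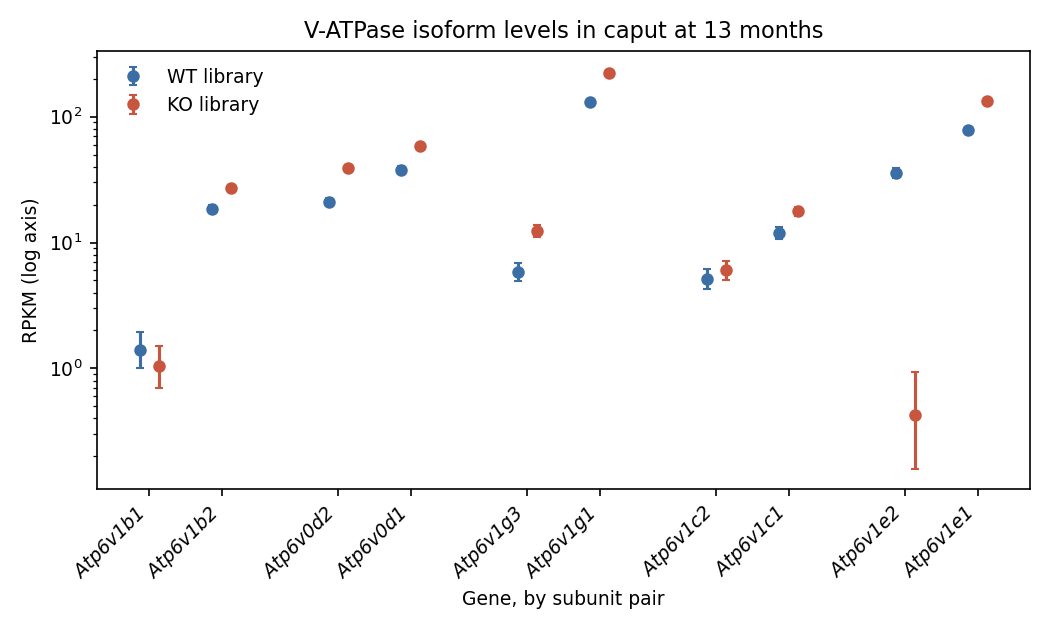
Level of each isoform in RPKM (log axis) in the WT and KO caput libraries at 13 months, grouped by subunit pair. Points are single pooled libraries and bars are exact Poisson intervals at 95% for the reads; Atp6v1e2 drops from 35.9 to 0.429 RPKM while Atp6v1e1 beside it goes from 78.0 to 134 RPKM as deposited, and with values centred on the principal cell list Atp6v1e1 is at -0.35.

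The order of levels differed between the libraries mainly in the place of Atp6v1e2. In WT it ran from Atp6v1g1 through Atp6v1e1, Atp6v0d1, Atp6v1e2, Atp6v0d2, Atp6v1b2, Atp6v1c1, Atp6v1g3 and Atp6v1c2 to Atp6v1b1. Counting intervals of neighbours overlapped for Atp6v0d1 with Atp6v1e2, for Atp6v0d2 with Atp6v1b2, and for Atp6v1g3 with Atp6v1c2. In KO the other 9 genes kept this order and Atp6v1e2 came last, where its interval overlapped that of Atp6v1b1. In both libraries the clear-cell isoform of each pair was below its ubiquitous paralogue.

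**Figure D2:**
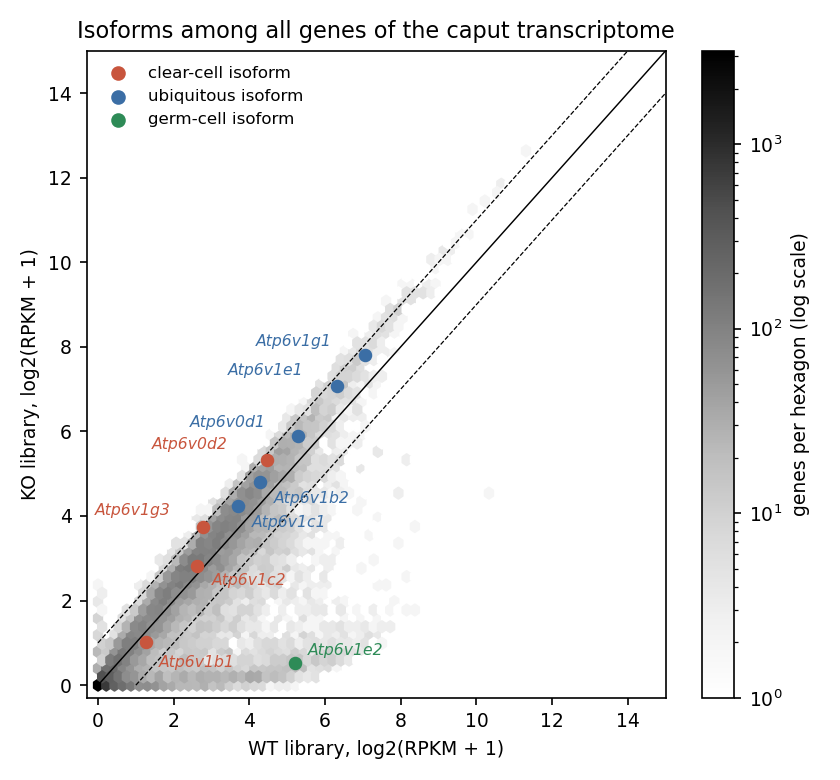
Level of every gene in the WT (horizontal axis) and KO (vertical axis) libraries as log2(RPKM + 1), with grey hexagons shaded by the number of genes and the 10 isoforms as coloured points. The solid line marks equal levels and the dashed lines 2-fold; 9 isoforms lie between the dashed lines and Atp6v1e2 lies below them among genes that are low in KO.

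Ratios within a pair were compared next, because a ratio of RPKM taken inside a library does not depend on how the libraries were scaled to each other. Pair changes on the log2(RPKM + 1) scale are not fully free of scaling, since the pseudocount enters them. Atp6v1b1 made up 7.14% of the RPKM of the B pair in WT and 3.71% in KO. Its ratio to Atp6v1b2 in KO was 0.501 of that in WT, with an exact conditional interval on the reads of 0.294 to 0.844. On the log2(RPKM + 1) scale this change was -0.78. The B pair thus tilted towards the ubiquitous form in the KO library, on 28 reads of Atp6v1b1.

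The d and G pairs tilted the other way by smaller steps. Atp6v0d2 held 35.7% of the d pair in WT and 40.0% in KO, and its ratio to Atp6v0d1 in KO was 1.20 times that in WT (1.06 to 1.36). Atp6v1g3 held 4.27% of the G pair in WT and 5.21% in KO, with a ratio change of 1.23 (1.01 to 1.51). On the log2(RPKM + 1) scale the G pair changed by 0.19, and with a pseudocount of 5 RPKM the sign turned, to -0.08. Atp6v1c2 held 30.3% of the C pair in WT and 25.3% in KO, with a ratio change of 0.782 whose interval included 1 (0.583 to 1.05). The 4 clear-cell isoforms therefore did not shift in 1 direction against their paralogues.

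The E pair differed most. Atp6v1e2 held 31.5% of the RPKM of the pair in WT and 0.319% in KO. In WT, Atp6v1e1 was 2.18 times as abundant as Atp6v1e2, and in KO it was 312 times as abundant. The ratio of Atp6v1e2 to Atp6v1e1 in KO was 0.00697 of that in WT (0.00254 to 0.0153), a change of -5.46 on the log2(RPKM + 1) scale. Ubiquitous isoforms are also made by germ cells, smooth muscle and interstitial cells, so these pair ratios cover all cells of the tissue. In bulk tissue, fewer cells of a type and less RNA per cell cannot be told apart.

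**Figure D3:**
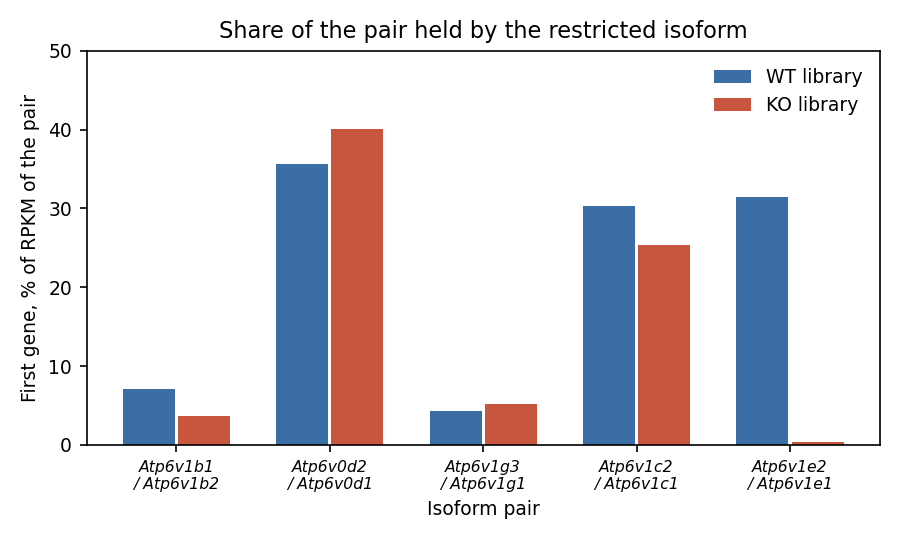
Share of the RPKM of each pair (vertical axis, %) held by the first gene named under the bars, in the WT and KO libraries, 1 library per bar. Atp6v0d2 goes from 35.7% to 40.0%, Atp6v1b1 from 7.14% to 3.71%, and Atp6v1e2 from 31.5% to 0.319%.

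The DNA before the start sites is a feature that the choice of genes did not use. RefSeq promoters in build GRCm38.p6 were matched for 6 of the 10 genes, Atp6v1b1, Atp6v1g3, Atp6v1c2, Atp6v0d1, Atp6v1e1 and Atp6v1e2, and not for Atp6v1b2, Atp6v0d2, Atp6v1g1 and Atp6v1c1. In the 250 bases before the start, CpG dinucleotides numbered 3 for Atp6v1b1 and 1 for Atp6v1g3, against 15 for Atp6v1c2, 18 for Atp6v0d1, 12 for Atp6v1e1 and 8 for Atp6v1e2. The median over 32851 promoters was 6, with quartiles of 2 and 16. The count of Atp6v1g3 lies below the lower quartile, that of Atp6v0d1 above the upper one, and those of the other 4 between them. Both promoters of a pair were at hand only for E, so the other pairs could not be compared. The core GTAAACA, which forkhead factors such as FOXI1 (the regulator of clear and intercalated cells) bind, was searched on both strands together with TCACGTGA, the core of the CLEAR element of lysosomal genes, and TGACGTCA, the cyclic AMP response element. These occurred in 3.17%, 0.785% and 1.55% of all promoters. Only GTAAACA was found, and only before Atp6v1b1, on the reverse strand from base -98 to -92. A match is a description of letters and shows no binding. The last 120 bases before the start are shown for Atp6v1b1 with that match in capitals (chr6:83742897-83743016, plus strand):
Atp6v1b1: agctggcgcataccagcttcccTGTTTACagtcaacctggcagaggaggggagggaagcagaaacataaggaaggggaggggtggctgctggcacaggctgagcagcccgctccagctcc
The same stretch is shown with CpG dinucleotides in capitals for Atp6v1g3, which has the fewest CpG of the 6 promoters (chr1:138273618-138273737, plus strand), and for the E pair, whose transcripts differed most, Atp6v1e2 (chr17:86947888-86948007, minus strand) and Atp6v1e1 (chr6:120822699-120822818, minus strand):
Atp6v1g3: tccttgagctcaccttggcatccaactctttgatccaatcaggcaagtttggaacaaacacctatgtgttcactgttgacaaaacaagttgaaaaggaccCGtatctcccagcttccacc
Atp6v1e2: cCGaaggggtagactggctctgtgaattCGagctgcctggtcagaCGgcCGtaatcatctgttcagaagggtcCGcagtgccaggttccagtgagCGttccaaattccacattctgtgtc
Atp6v1e1: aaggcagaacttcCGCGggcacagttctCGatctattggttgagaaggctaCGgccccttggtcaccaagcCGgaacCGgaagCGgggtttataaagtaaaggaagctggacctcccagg
In these 120 bases Atp6v1g3 has 1 CpG, Atp6v1e2 has 6 and Atp6v1e1 has 7.

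The rest of the pump gives the frame for the isoform pairs. Of 16 other subunits and accessory proteins, 0 were called higher and 0 lower, beside 2.77% and 22.1% of all genes tested. As deposited 15 were above 0, beside 52.4% of all genes tested, with a median of 0.43. With values centred on the principal cell list the median was -0.69 and 2 were called lower, beside 53.9% of all genes tested. The 5 other V1 subunits had differences from 0.11 to 0.41 as deposited, and from -0.71 to -1.02 with 1 called lower when centred on the principal cell list. Atp6v1a, the subunit that splits ATP, had 41.5 and 44.8 RPKM in WT and KO, Atp6v1d of the central stalk 77.7 and 89.6 RPKM, and Atp6v1f 74.2 and 90.4 RPKM. The regulatory subunit Atp6v1h had 12.0 and 14.2 RPKM, and Atp6v1g2, the neuronal G form, 4.52 and 6.34 RPKM. The KO over WT ratio was 1.40 for Atp6v1g2 (1.07 to 1.84) and 1.22 for Atp6v1f, both with intervals above 1. Their median of 0.23 lay below the 0.62 of the 5 ubiquitous isoforms.

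The 11 V0 and accessory genes had a median of 0.62 and a wider range, from -0.06 to 0.95, and the median was -0.51 with 1 called lower when centred on the principal cell list. The highest were Atp6v0e, a small membrane subunit (58.5 and 114 RPKM, 0.95), and Atp6ap1, an accessory protein of V0 (40.3 and 78.4 RPKM, 0.94). Rnasek, a small V0-associated protein, had 50.5 and 94.8 RPKM. Atp6v0c, which forms most of the proton-carrying ring, had 94.0 and 129 RPKM, and the pseudogene Atp6v0c-ps2 was listed with the same 1552 and 2076 reads, so its level is uncertain. Atp6v0a4 is the a subunit known from intercalated and clear cells, and belongs with the clear-cell isoforms by its role. It had 1.82 and 2.86 RPKM from 86 and 131 reads, between the levels of Atp6v1b1 and Atp6v1c2 in both libraries. Its KO over WT ratio was 1.57 (1.19 to 2.08), a difference of 0.45, or -0.67 when centred on the principal cell list. With values centred on the principal cell list the 7 assembly factors had a median of -0.999 and 3 were called lower. As deposited they had a median of 0.12 with 0 called, from -0.45 for Wdr7 (8.65 and 6.05 RPKM) to 0.77 for Vma21 (5.14 and 9.46 RPKM). Of the others, Rogdi had 33.2 and 26.6 RPKM, Dmxl1 12.6 and 15.8, and Dmxl2 13.0 and 13.2.

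Markers of clear cells were checked beside the isoforms. Of 10 markers 7 were tested, 1 was called higher and 2 lower, and the median was 0.01; with values centred on the principal cell list 0 were called higher, 4 lower and the median was -1.11. Foxi1, the transcription factor that defines these cells, had 11.8 RPKM in WT and 19.7 RPKM in KO, a ratio of 1.67 (1.47 to 1.90) that lies between those of Atp6v1b2 and Atp6v0d2. Its difference of 0.69 turned to -0.43 with values centred on the principal cell list. The ammonia channel Rhcg was called higher, at 96.2 and 205 RPKM (1.08), and was at -0.04 with values centred on the principal cell list. Carbonic anhydrase Car2 was called lower, at 15.3 and 6.86 RPKM (-1.06). Adcy10, the bicarbonate sensor of clear cells that spermatids also make, was called lower, at 21.4 and 0.372 RPKM (-4.03), near the difference of Atp6v1e2. The part of spermatids in the fall of Adcy10 was not tested. Dmrt2 had 2.56 and 4.18 RPKM, a ratio of 1.63 (1.23 to 2.16) and a difference of 0.54, or -0.58 when centred on the principal cell list. Ncoa7 (4.38 and 4.18 RPKM, -0.06) and Kit (4.05 and 4.09 RPKM, 0.01) differed little as deposited, and were at -1.18 and -1.11 when centred. The 3 markers not tested were close to 0: Slc26a4 with 0.0904 RPKM in WT and 0.0931 RPKM in KO, Slc4a9 with 14 and 2 reads, and Oxgr1 with 35 and 0 reads. As deposited, 4 of the 7 tested clear-cell markers were above 0 and 3 below. Of the 4 clear-cell isoforms 3 were above 0 and 1 below as deposited. That 1, Atp6v1b1, had a ratio interval that included 1 (0.438 to 1.23). With values centred on the principal cell list both sets were below 0 throughout. The 7 markers then ran from -0.04 to -5.15 and the 4 isoforms from -0.16 to -1.36.

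Other cells and organelles that use the pump were measured with the same rule. The 27 lysosomal genes, which belong with the ubiquitous forms by their role, had a median of 0.70 as deposited. All 27 were above 0, beside 52.4% of all genes tested. Of these 7 were called higher, beside 2.77% of all genes tested. With values centred on the principal cell list their median was -0.42 with 0 called higher and 1 lower, beside 53.9% of all genes called lower. With a pseudocount of 5 RPKM, or centred on all genes, 4 were called higher, beside 190 and 321 of 15000 genes. The lysosomal list included Npc2 (252 and 572 RPKM), Ctsd (211 and 423), Ctsl (228 and 364), Lamp1 (191 and 277) and Lamtor4 (38.9 and 86.0). Npc2 is also an abundant secreted protein of the epididymis. Macrophages also make Atp6v0d2. Of 15 macrophage markers 13 were tested, 0 were called and the median was 0.23, against 0.87 for Atp6v0d2. With values centred on the principal cell list 3 were called lower, the median was -0.90 and Atp6v0d2 was at -0.25, and with a pseudocount of 0.1 RPKM 2 were called higher. Their summed level was 138 RPKM in WT and 167 RPKM in KO, with 0 markers at 0, and Lyz2 had 41.6 and 47.8 RPKM, C1qa 23.1 and 27.2, Cd68 4.98 and 10.8, and Mrc1 4.50 and 2.43. Their part in the level of Atp6v0d2 was not tested.

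Principal cells, which take up bicarbonate and so act with clear cells on the luminal pH, were described by 13 acid-base genes. Of these 10 were tested, 1 was called higher and 0 lower, and the median was 0.27, or -0.86 with 0 called higher and 5 lower when centred on the principal cell list. With a pseudocount of 0.1 RPKM 3 were called higher, with summed transcripts 2 and with 5 RPKM 0. The one called was Car12, a membrane carbonic anhydrase, at 5.38 and 14.5 RPKM (1.28; 0.15 with values centred on the principal cell list). The sodium bicarbonate cotransporter Slc4a4 had 4.65 and 9.82 RPKM (0.94, or -0.18 centred), the proton exchanger Slc9a2 a difference of 0.68 (-0.45 centred), and the anion channel Cftr 7.32 and 8.01 RPKM. The remaining marker lists had medians of 0.86 for basal cells (5 genes, 1 called higher, or 2 with a pseudocount of 0.1 RPKM and 0 with 5 RPKM), 0.56 for smooth muscle (5 genes), 0.14 for endothelium (3 of 4 genes tested), -1.86 for Sertoli cells (3 of 5 tested genes called lower) and -3.77 for Leydig cells. With values centred on the principal cell list the first 3 of these medians were below 0, 0 basal genes were called higher and 1 endothelial gene was called lower.

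**Figure D4:**
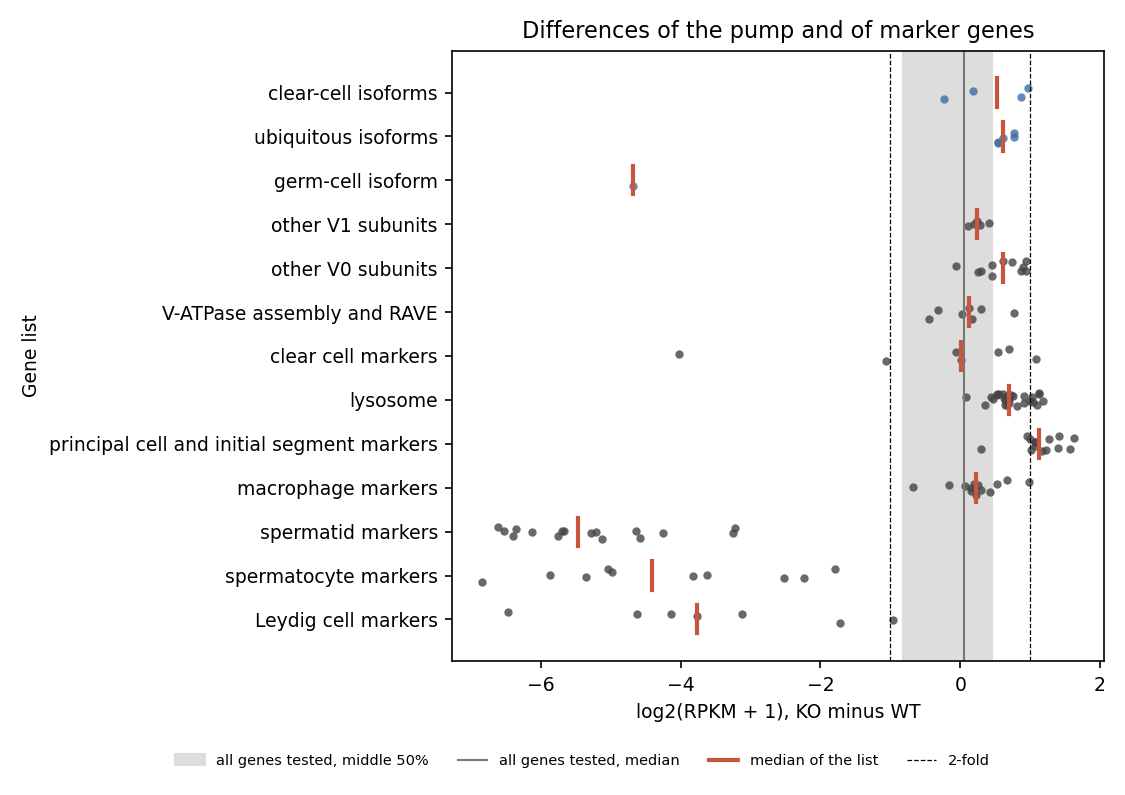
Difference of each tested gene, log2(RPKM + 1) in KO minus WT (horizontal axis), by gene list, with the isoforms in blue and other genes in dark grey. Red bars are list medians, the grey band is the middle 50% of all genes tested, and dashed lines mark 2-fold. The ubiquitous isoforms sit at a median of 0.62, which turns to -0.50 with values centred on the principal cell list. Atp6v1e2 sits at -4.69, inside the ranges of the spermatid, spermatocyte and Leydig cell markers.

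The genes most like Atp6v1b1 and Atp6v1e2 were found by the distance over log2(RPKM + 1) in both libraries, which uses 2 values per gene. Nearest to Atp6v1b1 were Aff3 (1.39 and 1.04 RPKM, distance 0.0117), Plod2 (1.39 and 1.02) and Gadd45b (1.43 and 1.08), among 271 genes within 0.25. Nearest to Atp6v1e2 were 1700029P11Rik (36.5 and 0.421 RPKM, distance 0.0282), 1700020N18Rik (35.7 and 0.394) and 4921517D21Rik (36.8 and 0.396), among 72 genes within 0.25. The named neighbours lie inside the counting intervals of Atp6v1b1 (1.00 to 1.93 and 0.693 to 1.51 RPKM) and of Atp6v1e2 (32.8 to 39.1 and 0.157 to 0.933 RPKM). Their ranking is therefore not resolved by the reads.

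A separate readout came from small RNAs of 18 to 40 nt. At 13 months 1 WT and 1 KO library were made for each of testis and the 3 epididymal regions (caput, corpus, cauda), and at 2 months for caput alone, where the number of pooled mice is not given in the labels. Reads assigned to the 11 RefSeq transcripts of the 10 genes were counted in these 10 libraries, which held 3855476 to 29049669 classified reads. They numbered 92 in all, at most 6 for a gene in a library and at most 3 for a single sequence. The ubiquitous isoforms had 79 of these reads and the clear-cell isoforms 13. Atp6v1b1 and Atp6v1e2 had 0 in all 10 libraries, both testis libraries included, where 3 counts correspond to 0.350 RPM in WT and 0.305 RPM in KO. Both caput libraries at 2 months had 0 for every gene. In caput at 13 months the 10 genes together had 18 reads in WT and 14 in KO, or 1.30 (0.772 to 2.06) and 0.762 (0.417 to 1.28) RPM (reads scaled to the classified total), with overlapping intervals. Scaled to miRNA reads these values were 3.02 and 1.22, and for reads of 24 to 32 nt 0.651 and 0.327 RPM. Reads assigned to other GenBank entries of the same genes were not analysed here, so a 0 does not show that a gene gave no fragments.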

How the data were processed

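Caput transcriptomes of 1 WT and 1 KO library, and small RNAs of 10 libraries, were used. Per the file headers the authors ran GFOLD 1.1.3, and deposited RPKM per RefSeq transcript, a log2 fold change, a GFOLD value on the log2 scale and an E-FDR given as a p-value, which is 1 in every row and was not used. Per the submitters' processing notes TopHat2, Bowtie 0.12.7 and mm9 were used, in roles not given in the sources used here. The small RNA files were deposited as read counts per distinct sequence, matched with at most 2 mismatches per the file headers. In the 2-month files 5531 and 5419 entries hold a date in place of the count, which was read from its month, and 41 transcriptome rows whose gene name had become a date were named through their RefSeq accession.

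Each gene was represented by its transcript with the highest mean RPKM. Whole reads were recovered from both RPKM values and the authors' deposited log2 fold change, which adds 1 read to each count. For 91.9% of 28344 transcripts, all 10 members included, 1 pair of reads matched within 0.01 reads plus rounding. Recovery was tested on simulated data. Fold intervals are exact conditional binomial, level intervals exact Poisson and pair intervals exact conditional odds ratios (scipy 1.17.1). Whether counting used strand is not given in the sources used here, and 4 members overlap another gene (Atp6v1b2, Atp6v1c2, Atp6v1g1 and Atp6v1e1). No test was possible with 1 library per group, and no count model was run. Reads carry no molecular identifiers, so intervals and the floor of 3 counts cover counting error only.

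Members, lists and the naming rule (all members, and per list up to 4 genes by mean and 2 by difference) were chosen with earlier results of these data known. Genes named beyond this rule (Atp6v0a4, Dmrt2, Ncoa7, Kit, Slc26a4, Slc4a9, Oxgr1, Pdia6 and Atp6v0c-ps2) were chosen after their values were seen. Alternatives covered pseudocounts of 0.1 and 5 RPKM, filters, summed transcripts, centring and, for small RNAs, mismatches, base and length. A planned comparison of protein sequences was not run.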

Additional observations from a re-analysis of the deposited data

How the results depend on the processing

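No paired analysis was possible because each group is 1 library and the labels carry no replicate numbers. Atp6v1e2 was called lower under each pseudocount, filter, transcript and centring setting run. The change of the E pair was -6.87 with a pseudocount of 0.1 RPKM and -3.65 with 5 RPKM, by the construction of the scale. The number of members called higher was 0 and became 1 with a pseudocount of 0.1 RPKM, where 698 of 15000 genes were called higher. With values centred on the principal cell list, 2 members were called lower in place of 1, 2 other subunits in place of 0, and 4 clear cell markers in place of 2, while 0 in place of 1 clear cell marker was called higher; 53.9% of all genes were called lower under that centring. With a pseudocount of 5 RPKM, 1 clear cell marker was called lower. The B, d and C pair changes kept their sign under both pseudocounts and with summed transcripts, while the G pair turned from 0.19 to -0.08 with a pseudocount of 5 RPKM. Depth limits Atp6v1b1, at 39 and 28 reads, and the small RNA fragments, where no member passed 6 reads in a library.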
